A study of Homo sapiens with 6 samples.

Results

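MHC class I molecules display peptides from inside the cell to CD8 T cells and are also read by natural killer cells. Each is a heavy chain encoded by an HLA gene, held together with the light chain beta-2-microglobulin (B2M). Peptides cut by the proteasome enter the endoplasmic reticulum through the TAP1 and TAP2 transporter and are loaded with the help of tapasin (TAPBP). NLRC5 is the transactivator of class I promoters, which it reaches through the RFX, CREB/ATF and NF-Y factors, and interferons and NF-kB raise transcription of many of these genes. Tumour cells often lose part of this machinery.

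The genes described are 9 of this pathway, chosen by symbol (HLA-B, HLA-C, HLA-E, HLA-F, B2M, TAP1, TAP2, TAPBP and NLRC5) with earlier results of these data known; the rule itself uses no measured value. In the probe annotation used, 8 of the 9 had a probe set, 1 each, out of 15669 named genes and 16965 probe sets in all, and HLA-B was not analysed here. The arrays hold total RNA of MDA-MB-231, a widely used line from a human breast tumour without hormone receptors or HER2 amplification, grown with 10% serum and 2.5 µg/ml puromycin. The cells carried a short hairpin RNA aimed at S100A10, either shS100A10_1 or shS100A10_5, or the hairpin shNCT, which is labelled control, with 2 arrays in each of the 3 groups. All cells, the controls included, therefore carried a hairpin. S100A10 encodes p11, the partner of annexin A2 at the plasma membrane.

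The labels do not say whether the 2 arrays of a group came from different cultures. The p-values therefore reflect array-to-array spread alone, possibly technical, and the small number of arrays limits precision. Values are normalized intensities of the deposited table on the log2 scale, and levels of different probe sets are not compared. S100A10 itself averaged 10.77 with shS100A10_1 and 13.47 with shS100A10_5, against 16.47 with shNCT. Array medians lay between 7.86 and 7.90. Replicate 2 of shS100A10_5 stood apart on the first principal component of all probe sets, at 41.1 against 18.7 for replicate 1 and between -18.2 and -10.0 for the 4 other arrays. All 6 mesenchymal-like line markers, such as VIM, lay above the median of the table, and 3 of 4 measured luminal markers below it, the exception being KRT19. Of 9 measured leukocyte markers, 8 lay below that median in every group, the exception being CD68.

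The measured class I genes did not share a single pattern. The 3 heavy chain genes HLA-C, HLA-E and HLA-F were lower with shS100A10_5 than with shS100A10_1 in log2 level (differences of -1.02, -0.59 and -0.33 for HLA-E, HLA-C and HLA-F), and for HLA-E this difference passed the threshold. Against shNCT, all 3 were higher with shS100A10_1, by between 0.33 and 0.40. With shS100A10_5, HLA-E (-0.615) and HLA-C (-0.26) were lower than the controls and HLA-F (0.04) overlapped them. None of these changes against shNCT passed, and the heavy chain genes were not tested against the other genes as a set. B2M, TAP1 and TAPBP had higher values with both hairpins than with shNCT, by between 0.36 and 0.72, with close values for the 2 hairpins, but none of these changes passed after adjustment over all probe sets. TAP2 and NLRC5 overlapped between groups.

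HLA-E encodes a nonclassical heavy chain that presents leader peptides of other class I chains to the CD94/NKG2A receptor of natural killer cells. Its log2 intensity was 12.77 and 12.73 with shS100A10_1, 11.75 and 11.71 with shS100A10_5, and 12.21 and 12.48 with shNCT. Both shS100A10_1 arrays lay above the controls and both shS100A10_5 arrays below them. HLA-E was 2.03-fold lower with shS100A10_5 than with shS100A10_1 (log2 difference -1.02, SE 0.17, 95% interval -1.41 to -0.63; limma, adjusted p = 0.0179). Against shNCT, the log2 changes were 0.40 (SE 0.17; limma, adjusted p = 0.562) with shS100A10_1 and -0.615 (SE 0.17; limma, adjusted p = 0.0823) with shS100A10_5. The difference between the hairpins lay between -1.04 and -0.997 with any array left out, but its limma adjusted p was 0.0984 without shS100A10_1 replicate 1, 0.0725 without shS100A10_1 replicate 2 and 0.111 without shS100A10_5 replicate 2. In bulk RNA, fewer cells with a transcript and less of it per cell cannot be told apart.

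HLA-C encodes a classical heavy chain that presents peptides to T cells and is a ligand of killer immunoglobulin-like receptors. Its log2 intensity was 12.10 and 12.09 with shS100A10_1, 11.65 and 11.36 with shS100A10_5, and 11.82 and 11.70 with shNCT. The groups did not overlap, with shS100A10_1 highest and shS100A10_5 lowest. The difference between shS100A10_5 and shS100A10_1 was -0.59 (SE 0.18, 95% interval -0.98 to -0.20; limma, adjusted p = 0.106). The changes against shNCT were 0.33 with shS100A10_1 and -0.26 with shS100A10_5 (SE 0.18 each; limma, adjusted p = 0.674 and 0.447). When 1 array was left out, the change with shS100A10_5 lay between -0.399 (without shS100A10_5 replicate 1) and -0.116 (without shS100A10_5 replicate 2).

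HLA-F encodes a nonclassical heavy chain that can reach the cell surface without peptide. Its log2 intensity was 8.75 and 8.55 with shS100A10_1, 8.43 and 8.20 with shS100A10_5, and 8.21 and 8.33 with shNCT. The shS100A10_1 arrays lay above all the others, and those of shS100A10_5 and shNCT overlapped. The difference between shS100A10_5 and shS100A10_1 was -0.33 (SE 0.18, 95% interval -0.73 to 0.06; limma, adjusted p = 0.334). HLA-G, a nonclassical heavy chain known from the placenta and outside the 9 genes, had 10.54 and 10.73 with shS100A10_1, 10.28 and 10.13 with shS100A10_5, and 10.23 and 10.13 with shNCT. Its difference between shS100A10_5 and shS100A10_1 was -0.42 (SE 0.17; limma, adjusted p = 0.21). Heavy chain genes are close relatives with many alleles, and signal shared between their probe sets could not be separated.

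TAPBP, which bridges empty heavy chains to the TAP transporter and edits their peptides, had the largest change against the controls among the 8 genes with each hairpin. Its log2 intensity was 12.73 and 12.81 with shS100A10_1, 12.58 and 12.88 with shS100A10_5, and 12.25 and 11.85 with shNCT. All 4 hairpin arrays lay above both controls. The change was 0.72 (1.65-fold, SE 0.20; limma, unadjusted p = 0.00426, adjusted p = 0.304) with shS100A10_1 and 0.68 (1.60-fold, SE 0.20; limma, unadjusted p = 0.00602, adjusted p = 0.0873) with shS100A10_5. For the mean of both hairpins it was 0.70 (SE 0.17; limma, adjusted p = 0.15). Leaving out 1 array, the change of TAPBP ran from 0.527 to 0.921 with shS100A10_1 and from 0.486 to 0.88 with shS100A10_5. When the variance prior followed mean intensity, TAPBP passed for shS100A10_5 (adjusted p = 0.0187) and for the mean (adjusted p = 0.0247), HLA-E passed for shS100A10_5 against shNCT (adjusted p = 0.0193) and HLA-C for shS100A10_5 against shS100A10_1 (adjusted p = 0.0344). The comparisons with the 2 hairpins share their control arrays.

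B2M, the light chain of all these molecules, had log2 intensities of 15.07 and 15.23 with shS100A10_1, 15.25 and 15.19 with shS100A10_5, and 14.995 and 14.59 with shNCT. Its lowest hairpin array lay only just above the higher control. The changes were 0.36 with shS100A10_1 and 0.43 with shS100A10_5 (SE 0.19 each; limma, adjusted p = 0.67 and 0.233). Without shNCT replicate 2, the lower control, they were 0.155 and 0.223.

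TAP1, an ATP-driven subunit of the peptide transporter, had log2 intensities of 8.51 and 8.31 with shS100A10_1, 8.47 and 8.47 with shS100A10_5, and 8.21 and 7.84 with shNCT. All hairpin arrays lay above the controls. The changes were 0.38 and 0.45 (SE 0.19 each; limma, adjusted p = 0.641 and 0.209), and 0.19 and 0.26 without shNCT replicate 2. TAP2, the other subunit, had 11.47 and 11.60 with shS100A10_1, 11.82 and 11.44 with shS100A10_5, and 11.50 and 11.29 with shNCT, so that each hairpin group overlapped the controls (changes 0.14 and 0.24, SE 0.19 each; limma, adjusted p = 0.907 and 0.526). Leaving out 1 array, the changes of TAP2 ran from 0.039 to 0.25 and from 0.048 to 0.426.

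Between the hairpins, the difference of shS100A10_5 minus shS100A10_1 was 0.07 for B2M (95% interval -0.35 to 0.49), 0.07 for TAP1 (-0.35 to 0.49), 0.09 for TAP2 (-0.33 to 0.52) and -0.04 for TAPBP (-0.48 to 0.40). For B2M, TAP1 and TAP2 the intervals include differences as large as the changes against shNCT. The interval of TAPBP does not reach its changes of 0.72 and 0.68.

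NLRC5 had log2 intensities of 4.14 and 3.69 with shS100A10_1, 3.76 and 4.12 with shS100A10_5, and 3.65 and 4.14 with shNCT. The 3 groups covered the same range, and its mean lay below the lower quartile of all probe sets (4.98). The changes were 0.02 and 0.04 (SE 0.23 each; limma, adjusted p = 0.994 and 0.944). The table has no detection calls, so whether this probe set was above background is not known.

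**Figure D1:**
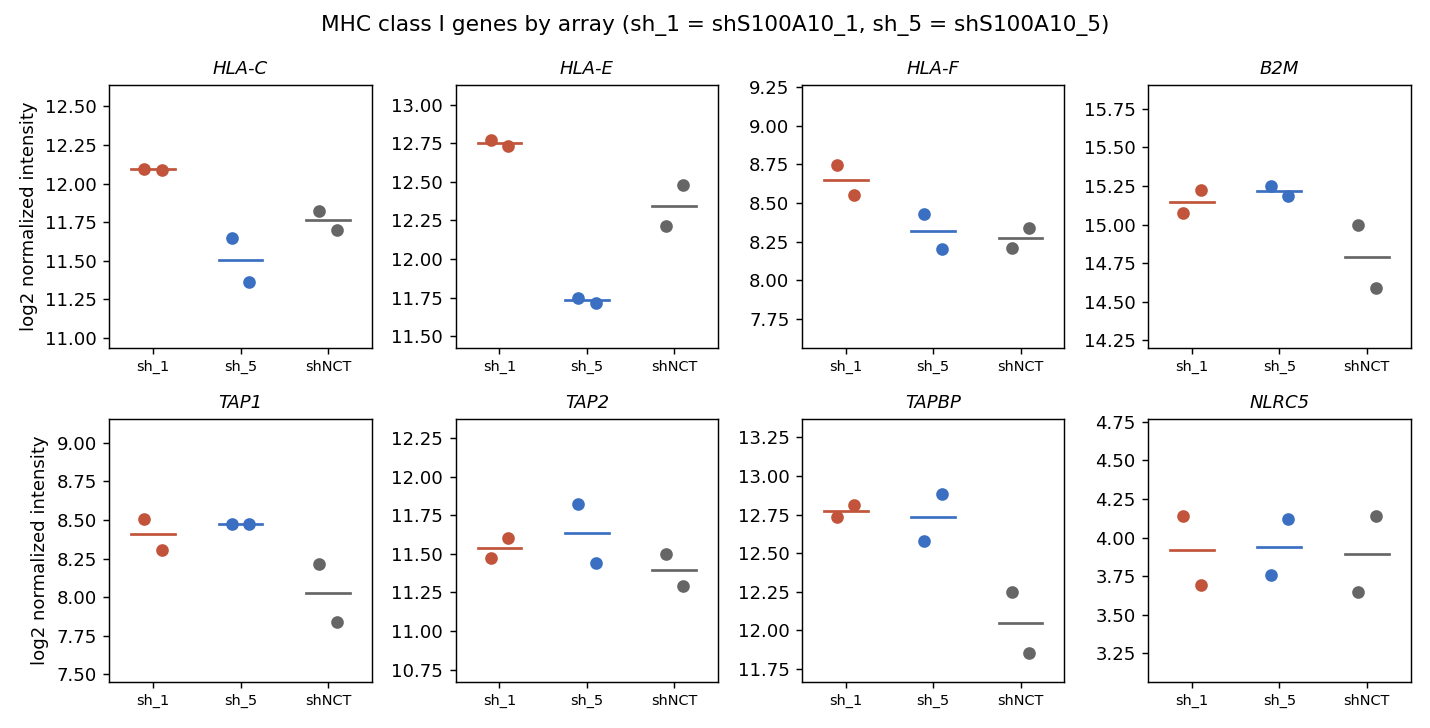
Log2 normalized intensity (vertical axis, own range but equal span in each panel) of the 8 measured class I genes with shS100A10_1, shS100A10_5 and shNCT. Points are arrays and bars group means (n = 2). HLA-E runs from 12.77 at the top with shS100A10_1 to 11.71 with shS100A10_5, while TAPBP lies at 12.58 or above on all hairpin arrays and at 12.25 or below on the controls.

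By limma at an adjusted p under 0.05, 0 of the 8 genes passed with shS100A10_1 against shNCT, where 0.189% of all probe sets passed. With shS100A10_5 against shNCT 0 passed, where 3.18% of all passed, and for the mean of both hairpins 0 passed, where 0.307% of all did. For shS100A10_5 against shS100A10_1, 1 of 8 passed (HLA-E, lower), where 2.91% of all passed. At an unadjusted p under 0.05 by limma, 2 were higher and 0 lower with shS100A10_1 (4.28% and 4.16% of all probe sets), and 3 were higher and 1 lower with shS100A10_5 (10.7% and 10.3% of all). For the mean 3 were higher and 0 lower (6.78% and 6.95% of all), and 7 of 8 changes were above 0 (52.3% of all). Between the hairpins, 0 were higher and 2 lower with shS100A10_5 (10.1% and 9.8% of all).

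With shS100A10_1, 6 of the 8 genes lay above both controls without overlap, which held for 21.9% of all probe sets, and 0 lay below them (20.5% of all). All 8 changes were above 0, as were 51% of all, and their median was 0.37 against 0.006 over all probe sets. With shS100A10_5, 3 genes lay above the controls (26.7% of all) and 2 below them (23.8% of all). There 6 changes were above 0, as were 53.3% of all, with a median of 0.14 against 0.03 over all. That median was 0.29 without shS100A10_5 replicate 2, and 0.24 with dim probe sets, NLRC5 among them, left out. Against shS100A10_1, 3 genes were lower with shS100A10_5 without overlap, the 3 heavy chain genes, and 0 were higher, where 23.4% and 25.6% of all were. There 4 of 8 differences were above 0, as were 52% of all. With so few genes and arrays, and with control arrays shared by both comparisons, these counts are a description.

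**Figure D2:**
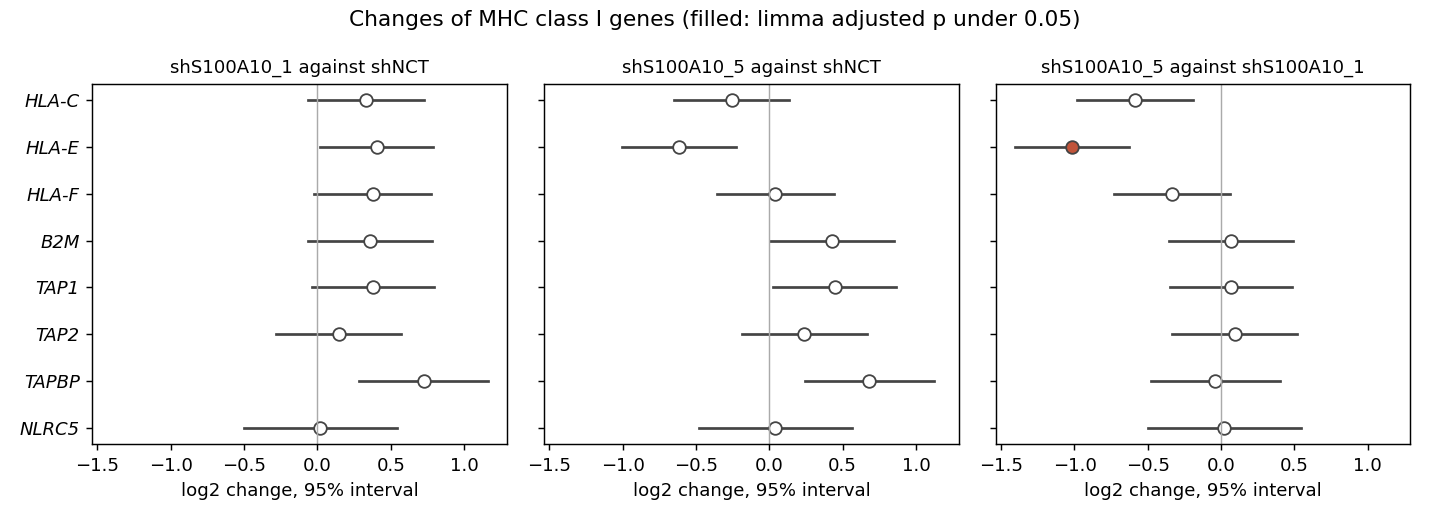
Log2 changes (horizontal axis) of the 8 genes with 95% intervals from the limma fit, for each hairpin against shNCT and for shS100A10_5 against shS100A10_1. The filled point is the 1 change past the threshold, HLA-E at -1.02; HLA-C and HLA-F lie on the same side at -0.59 and -0.33, and the other 5 genes lie between -0.04 and 0.09 in that panel.

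Upstream sequences are shown because class I genes are textbook examples of shared promoter elements. Of the genes shown, HLA-C and HLA-F were alike over the 6 arrays (Pearson's r = 0.78), as were B2M, TAP1 and TAPBP (0.89 to 0.90). They did not share a single pattern, with r = 0.04 between HLA-C and B2M. In the RefSeq promoter table (GRCh38.p14), 6 of the 8 measured genes had an entry whose start site was the outer edge of the gene record. HLA-E and NLRC5 had no entry matched in this way and were left out. The 200 bases before the annotated start site were searched on both strands for CCAAT, the NF-Y site (in 28% of 35116 promoter windows of that length), for TGACG, the core of the CREB/ATF site (18.4%), for GAAA, any 2 bases and GAAA again, the core of the interferon-stimulated response element (2.4%), and for GGG, any 2 bases, TT, any base and CC, a form of the NF-kB site (4.28%). Sequences run 5′ to 3′ on the gene's strand, and capitals mark these matches. They are those of HLA-C (chr6:31272093-31272292, minus strand), HLA-F (chr6:29723234-29723433, plus strand), B2M (chr15:44711317-44711516, plus strand), TAP1 (chr6:32853705-32853904, minus strand) and TAPBP (chr6:33314079-33314278, minus strand), chosen after their values were seen.
HLA-C: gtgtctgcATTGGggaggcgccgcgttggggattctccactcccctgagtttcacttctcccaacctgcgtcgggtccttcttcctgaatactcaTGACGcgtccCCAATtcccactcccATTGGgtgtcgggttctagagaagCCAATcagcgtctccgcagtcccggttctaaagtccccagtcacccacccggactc
HLA-F: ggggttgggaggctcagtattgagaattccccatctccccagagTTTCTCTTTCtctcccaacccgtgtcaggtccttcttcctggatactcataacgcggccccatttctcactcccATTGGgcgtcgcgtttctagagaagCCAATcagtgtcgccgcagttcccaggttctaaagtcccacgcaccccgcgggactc
B2M: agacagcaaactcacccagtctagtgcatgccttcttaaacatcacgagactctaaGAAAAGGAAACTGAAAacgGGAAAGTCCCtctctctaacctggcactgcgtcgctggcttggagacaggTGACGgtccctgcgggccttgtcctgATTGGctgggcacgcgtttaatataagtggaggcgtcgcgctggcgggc
TAP1: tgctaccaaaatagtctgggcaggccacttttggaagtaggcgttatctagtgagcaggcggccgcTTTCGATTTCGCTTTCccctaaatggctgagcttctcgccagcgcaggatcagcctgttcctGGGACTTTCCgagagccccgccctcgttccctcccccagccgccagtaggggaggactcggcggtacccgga
TAPBP: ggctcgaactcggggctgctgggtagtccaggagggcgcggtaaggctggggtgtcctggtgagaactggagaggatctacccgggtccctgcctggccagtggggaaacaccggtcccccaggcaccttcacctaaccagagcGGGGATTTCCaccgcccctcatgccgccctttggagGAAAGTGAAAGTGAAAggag

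B2M, TAP1 and TAPBP each held 2 overlapping interferon response cores and 1 NF-kB match. Counted from the start site, these cores spanned -20 to -5 in TAPBP, -134 to -119 in TAP1 and -144 to -129 in B2M. TAP2 held 1 core and no NF-kB match of these letters. HLA-C held 4 CCAAT matches, 1 TGACG and no match to the exact letters searched for the other motifs. HLA-F held 2 CCAAT matches and 1 core. B2M alone of these held all 4 motifs. These matches are a description of the reference sequence and not measured sites, and their relation to the array values was not tested. Other forms of each site were not searched, so a promoter without a match, such as that of HLA-C, may still hold the site.

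**Figure D3:**
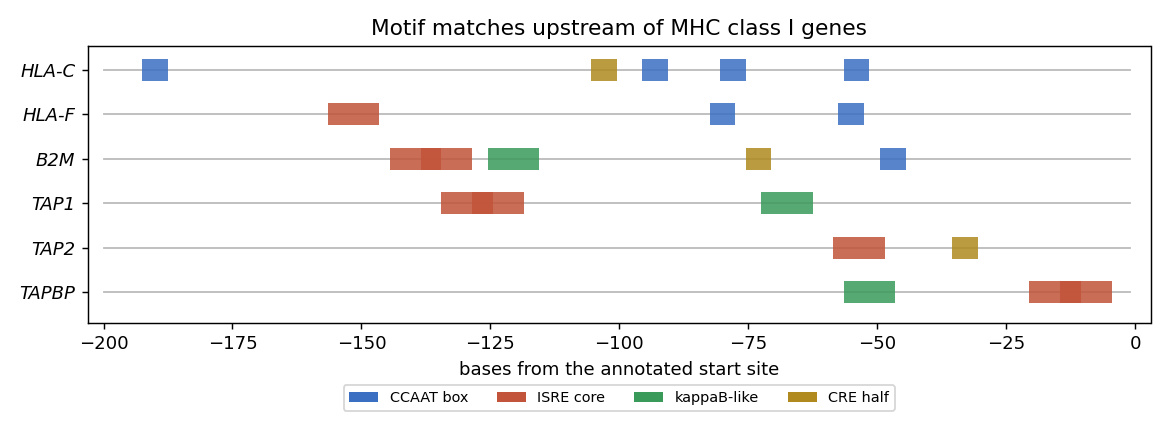
Motif matches in the 200 bases upstream of 6 class I genes, by distance in bases from the annotated start site (horizontal axis); box width is the motif's length and darker parts are overlaps. Paired interferon response cores appear in B2M, TAP1 and TAPBP, and CCAAT boxes in HLA-C, HLA-F and B2M.

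The factors that act on these promoters were read next, with 12 of 13 measured. RFXANK, a subunit of the RFX complex that binds class I and class II promoters, fell with shS100A10_5. Its log2 intensity was 11.90 and 11.66 with shS100A10_1, 11.16 and 10.42 with shS100A10_5, and 12.12 and 12.45 with shNCT. The shS100A10_5 arrays were the lowest, and the shS100A10_1 arrays lay between them and the controls. The change was -1.49 with shS100A10_5 (SE 0.25; limma, adjusted p = 0.0169) and -0.50 with shS100A10_1 (SE 0.25; limma, adjusted p = 0.641). It was the 1 factor of the 12 to pass with shS100A10_5, where 3.18% of all probe sets passed. The call was lost without shNCT replicate 1, shNCT replicate 2 or shS100A10_5 replicate 2, where the change was -1.66, -1.33 and -1.12.

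RFX5, the DNA-binding subunit of the same complex, had 10.41 and 10.46 with shS100A10_1, 9.90 and 9.51 with shS100A10_5, and 10.43 and 10.52 with shNCT (change -0.77 with shS100A10_5; limma, adjusted p = 0.0537). NFYA, of the CCAAT-binding factor NF-Y, had changes of -0.42 with shS100A10_1 and -0.69 with shS100A10_5 (limma, adjusted p = 0.657 and 0.106). Over the 12 factors the medians were -0.03 for shS100A10_1 and 0.05 for shS100A10_5, and 0 of them passed with shS100A10_1 by limma (0.189% of all probe sets). At an unadjusted p under 0.05 by limma, 1 was lower and 0 higher with shS100A10_1 (4.16% and 4.28% of all). With shS100A10_5, 3 were lower and 0 higher (10.3% and 10.7% of all).

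Among 5 measured heavy chain or class I-like genes outside the 9, MR1 rose with shS100A10_5. MR1 presents vitamin B metabolites to mucosal-associated invariant T cells and also pairs with beta-2-microglobulin. Its log2 intensity was 7.08 and 7.30 with shS100A10_1, 7.71 and 7.76 with shS100A10_5, and 6.62 and 7.01 with shNCT. Both hairpin groups lay above the controls, by 0.37 with shS100A10_1 (SE 0.19; limma, adjusted p = 0.649) and by 0.92 with shS100A10_5 (SE 0.19; limma, adjusted p = 0.0354). That call was lost without shNCT replicate 1 (limma adjusted p = 0.186), shNCT replicate 2 (0.103), shS100A10_5 replicate 1 (0.0585) or shS100A10_5 replicate 2 (0.186). FCGRT, the neonatal Fc receptor gene, had changes of -0.27 and -0.73 (limma, adjusted p = 0.829 and 0.106). The difference between hairpins in this list ran from -0.84 for HFE (limma, adjusted p = 0.0536) to 0.55 for MR1 (limma, adjusted p = 0.153), with a median of -0.42.

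None of the 8 measured genes of endoplasmic reticulum loading and trimming passed with either hairpin by limma, nor at an unadjusted p under 0.05 (0 of 8 for each), and the list's medians were 0.09 for shS100A10_1 and 0.17 for shS100A10_5. HSPA5, an endoplasmic reticulum chaperone, had 0.28 and 0.18, TAPBPL, a tapasin-related editor, 0.39 and 0.20, and the aminopeptidase gene NPEPPS 0.15 and 0.18 (limma, adjusted p between 0.593 and 0.897). Of 6 measured immunoproteasome and activator genes 0 passed by limma, with medians of 0.04 and 0.003. PSMB10 had -0.29 with shS100A10_1 and -0.93 with shS100A10_5 (limma, adjusted p = 0.813 and 0.0598). It was the 1 gene of that list past an unadjusted p of 0.05, with shS100A10_5, where 10.3% of all probe sets were lower.

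PSMB9, another inducible proteasome subunit, starts 488 bases from TAP1 on the opposite strand in RefSeq. Named after its values were seen, it had -0.30 with shS100A10_1 and 0.09 with shS100A10_5 (limma, adjusted p = 0.773 and 0.84), where TAP1 had 0.38 and 0.45. All 7 constitutive beta subunits had changes below 0 with shS100A10_5, with a median of -0.54 and 4 lower at an unadjusted p under 0.05, though 0 passed by limma after adjustment. Of all probe sets 53.3% had changes above 0 and 10.3% were lower at an unadjusted p under 0.05. PSMB6 had -0.66, PSMB5 -0.54 and PSMB4 -0.54 (limma, adjusted p = 0.103, 0.146 and 0.127). With shS100A10_1 the median of the 7 subunits was -0.04. Every subunit but PSMB2 was lower on shS100A10_5 replicate 2, the array that stood apart, than on replicate 1. PSMB7 had log2 intensities of 13.53 and 12.84 with shS100A10_5, against 13.83 and 13.91 with shNCT. PSMB1 and PSMB2 overlapped the controls.

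Of 9 measured interferon receptor and signalling genes 0 passed by limma with either hairpin. IFNAR2, a chain of the type I interferon receptor, had 0.63 and 0.78 (limma, adjusted p = 0.336 and 0.0529). IFNAR1, the other chain, had 0.45 and 0.67, and the kinase gene TYK2 had -0.27 and -0.60 (limma, adjusted p between 0.129 and 0.801). At an unadjusted p under 0.05 by limma, 1 was higher with shS100A10_1 (4.28% of all probe sets). With shS100A10_5, 2 were higher and 2 lower (10.7% and 10.3% of all).

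Of 25 measured interferon-stimulated genes, IFIT2 (2.04) and OASL (2.50) passed by limma with shS100A10_1, where 0.189% of all probe sets passed. GBP2 (1.54), XAF1 (1.22) and OAS1 (1.13) passed with shS100A10_5, where 3.18% of all did. The list's medians were 0.48 and 0.26. Without passing, IFIT2 also lay above the controls with shS100A10_5 (0.90), and GBP2 (0.69) and OAS1 (0.64) with shS100A10_1. XAF1 overlapped the controls with shS100A10_1 (0.20), and OASL lay below them with shS100A10_5 (-0.62). At an unadjusted p under 0.05 by limma, 13 were higher and 0 lower with shS100A10_1 (4.28% and 4.16% of all probe sets), and 9 were higher and 1 lower with shS100A10_5 (10.7% and 10.3% of all). OASL kept its call with any array left out. IFIT2 lost it without shNCT replicate 1 (0.0661), shNCT replicate 2 (0.208), shS100A10_1 replicate 2 (0.0826) or either shS100A10_5 array (0.0994 each, limma adjusted p). GBP2 lost it without shNCT replicate 1 (0.0604) or shS100A10_5 replicate 2 (0.0993). XAF1 lost it without shNCT replicate 1 (0.105), shNCT replicate 2 (0.0862) or shS100A10_5 replicate 2 (0.13), and OAS1 without either shNCT array (0.119 and 0.181) or either shS100A10_5 array (0.0607 and 0.182).

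For the mean of both hairpins, IFIT2 (1.47), OASL (0.94) and GBP2 (1.115) passed (limma, adjusted p = 0.048, 0.0474 and 0.0338), where 0.307% of all probe sets did. They lost this call under 7, 8 and 5 of 16 alternatives. Between the hairpins, interferon-stimulated genes differed in both directions. OASL, an antiviral protein related to the oligoadenylate synthetases, had a change of -0.62 with shS100A10_5 against shNCT (limma, adjusted p = 0.0928), and its difference of shS100A10_5 minus shS100A10_1 was -3.12 (limma, adjusted p = 0.000147). IFIT3 was also lower with shS100A10_5 (-0.76), and GBP1 (0.78), GBP2 (0.86) and XAF1 (1.02) were higher (limma, adjusted p between 0.0236 and 0.0466). OASL kept this call with any array left out. IFIT3, GBP1 and GBP2 lost it with any 1 array left out (limma, adjusted p from 0.0569 to 0.251), and XAF1 without any 1 hairpin array (0.0522 to 0.135).

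MHC class II genes, which display peptides from outside the cell to CD4 T cells, share the RFX and NF-Y factors with class I. Of 10 measured, 0 passed by limma with either hairpin. With shS100A10_5 their median was -0.21, and 4 were lower at an unadjusted p under 0.05 (10.3% of all probe sets), while with shS100A10_1 it was 0.01 and 1 was higher (4.28% of all). HLA-DPB1, a class II beta chain, had -0.03 with shS100A10_1 and -0.815 with shS100A10_5, and HLA-DMA, of the class II peptide editor, had -0.22 and -0.65 (limma, adjusted p between 0.0691 and 0.989). HLA-DPA1, the alpha chain that pairs with HLA-DPB1, had 0.67 and 0.24 (limma, adjusted p = 0.276 and 0.465).

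Among 11 ligands of T cell and natural killer cell receptors, 0 passed by limma with either hairpin. MICB, a stress-induced ligand of NKG2D, had 0.43 with shS100A10_1 and 0.55 with shS100A10_5 (limma, adjusted p = 0.494 and 0.0979). NECTIN2, a ligand of DNAM-1 and PVRIG, had -0.08 and -0.72 (limma, adjusted p = 0.952 and 0.0506), and PVR, the poliovirus receptor, had 0.25 and 0.21 (limma, adjusted p = 0.785 and 0.567). The list's medians were 0.09 and 0.21. At an unadjusted p under 0.05 by limma, 1 was higher with shS100A10_1 (4.28% of all probe sets). With shS100A10_5, 2 were higher and 1 lower (10.7% and 10.3% of all).

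**Figure D4:**
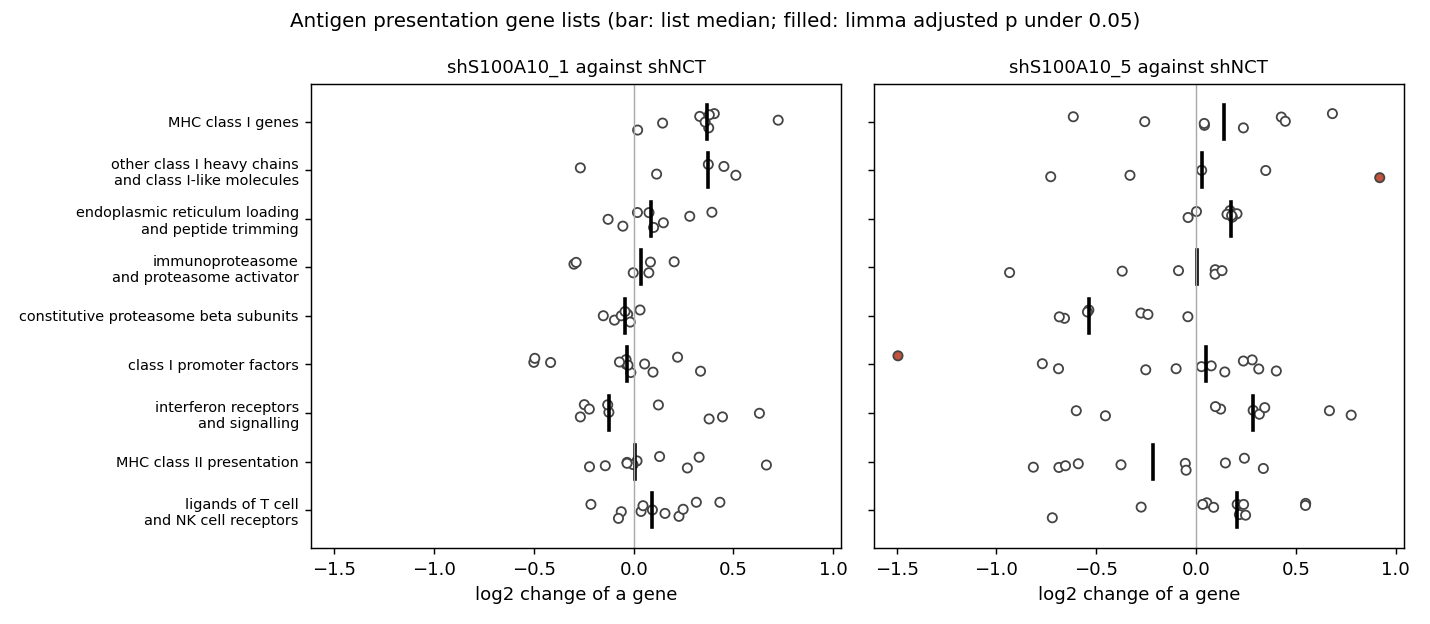
Log2 change against shNCT (horizontal axis) of every measured gene in 9 antigen presentation lists, with shS100A10_1 on the left and shS100A10_5 on the right; points are genes, black bars list medians. The 2 filled points are MR1 at 0.92 and RFXANK at -1.49, and the bar of the class I genes lies at 0.37 on the left and 0.14 on the right.

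Markers of leukocytes, which express class I strongly, were read for their own levels. The summed intensity of the 9 measured leukocyte markers was 7723 to 8173 with shS100A10_1, 4722 to 6199 with shS100A10_5 and 6697 to 6928 with shNCT. CD68, a lysosomal protein also made by cells other than macrophages, made up most of it. Its difference between shS100A10_5 and shS100A10_1 was -0.59 (limma, adjusted p = 0.118), on the same side as the heavy chain genes, and its part in those results was not tested. The 8 others summed to 368.1 to 410 with shS100A10_1, 368.6 to 444.5 with shS100A10_5 and 403.7 to 411.5 with shNCT. PTPRC, the pan-leukocyte marker CD45, had log2 levels of 5.50 with shS100A10_1, 5.47 with shS100A10_5 and 5.22 with shNCT, and CSF1R and CD14 had changes between -0.42 and 0.29, with 0 of the 9 markers past limma's threshold or an unadjusted p of 0.05 against shNCT.

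The genes most like the class I genes over the 6 arrays were sought among 4398 genes' probe sets with an SD of at least 0.3, by Pearson's r with the mean of the 8 centred profiles. The highest were KLLN (0.987), ARRB1 (0.983), OR2K2 (0.982), GPRIN3 (0.975) and TNFSF15 (0.972), each highest with shS100A10_1 and lowest with shNCT. The profile itself was 0.22 and 0.15 with shS100A10_1, -0.01 and -0.05 with shS100A10_5, and -0.12 and -0.20 with shNCT. The 8 genes averaged in this profile did not share a pattern: r was -0.31 between HLA-E and B2M and 0.90 between B2M and TAPBP. Likeness to the profile is therefore not likeness to each gene. KLLN, OR2K2 and GPRIN3 lay below the lower quartile of all probe sets (4.98) on every array, so whether they were above background is not known. The r values describe 6 arrays that share 3 groups and were picked as the highest of many.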

How the data were processed

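MDA-MB-231 total RNA was biotin-labelled and hybridised to whole-transcript arrays, per the labels' protocols. The authors deposited linear normalized intensity values for each probe set, made with Transcriptome Analysis Console per the submitters' processing notes; version, background correction and normalization are not given here. The table carries no detection calls, scan dates or batches. The platform annotation gave 15674 of 16965 probe sets 1 gene symbol, 0 several and 1291 none; the brightest probe set stood for a gene.

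Intensities were converted to log2 and group means fitted over the 6 arrays together (limma 3.58.1, R 4.3.3; lmFit and eBayes, 3 residual and 7.16 prior degrees of freedom). Tests were two-sided, for 4 contrasts, with Benjamini-Hochberg adjustment over all probe sets at 0.05. The fit was tested on simulated data. The members and gene lists were chosen with earlier results of these data known. Genes named were the members, the listed genes that passed, and the 3 per list with the lowest p in the contrast averaging both hairpins; those with no bearing on the members are left out. Alternatives were quantile normalization, median centring, a filter on dim probe sets, an intensity trend, robust hyperparameters, array weights, a replicate block, only the groups compared, 1 value per gene, an adjusted p of 0.1 and leaving out each array.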

Additional observations from a re-analysis of the deposited data

Results flagged for a closer look

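HLA-E was flagged because the 2 hairpins differed from each other in a direct test: the log2 difference of shS100A10_5 minus shS100A10_1 was -1.02 (limma, adjusted p = 0.0179). HLA-C was flagged because both shS100A10_1 arrays lay above the controls and both shS100A10_5 arrays below them. Its log2 difference of -0.59 did not pass in the direct test (limma, adjusted p = 0.106).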

How the results depend on the processing

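With an intensity trend in the prior, 2 of the 8 genes passed for shS100A10_5 against shNCT (HLA-E and TAPBP), 2 for shS100A10_5 against shS100A10_1 (HLA-E and HLA-C) and 1 for the mean of both hairpins (TAPBP); at an adjusted p of 0.1, 2 passed for shS100A10_5 against shNCT. The cause was not tested. Leaving out 1 array at a time gave 0 to 1 passing for shS100A10_5 against shS100A10_1 and 0 in the 3 other comparisons. Leave-one-out changes whose sign turned ranged, for NLRC5, from -0.226 to 0.265 with shS100A10_1, -0.205 to 0.287 with shS100A10_5, -0.205 to 0.248 between hairpins and -0.216 to 0.276 for the mean; for HLA-F with shS100A10_5 from -0.073 to 0.157; between hairpins for B2M from -0.009 to 0.146, TAP1 -0.033 to 0.168, TAP2 -0.096 to 0.281 and TAPBP -0.193 to 0.111; and for the mean for HLA-C from -0.034 to 0.107 and HLA-E -0.24 to 0.028. Without shNCT replicate 1, the changes with shS100A10_1 were 0.562 for B2M and 0.565 for TAP1. The median change of the 8 genes with shS100A10_5 ran from 0.134 to 0.292 with 1 array left out, and was 0.237 with dim probe sets left out. The labels do not say whether replicate numbers pair the arrays. The replicate 2 minus 1 differences correlated at -0.022 (shS100A10_1 and shNCT), -0.035 (shS100A10_5 and shNCT) and 0.188 (the 2 hairpins). With 1 difference per group, these values cannot settle whether arrays were paired. With the replicate number as a block, HLA-E differed by -1.02 between hairpins (limma, adjusted p = 0.0207) and no member's call changed. Over all probe sets, leave-one-out counts of calls ran from 8 to 16 with shS100A10_1, 3 to 994 with shS100A10_5, 7 to 656 between hairpins and 6 to 44 for the mean; under the other alternatives they ran from 16 to 98, 242 to 1454, 287 to 1144 and 41 to 218.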
